A study of Mus musculus with 8 samples.

Results

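The genes described here encode the voltage-gated sodium channels, the voltage-gated calcium channels, the HCN pacemaker channels, the TRPC, TRPM and TRPV cation channels, the ClC chloride channels and transporters, and the mechanosensitive or ciliary channels *Piezo1*, *Piezo2* and polycystin-2. They were chosen by name alone from the count table of the LVs (left ventricles): sodium channel alpha subunits (Scn, number, a) and beta subunits (Scn, number, b), all calcium channel subunits (Cacn), Hcn, Trpc, Trpm, Trpv, Clcn with a number, *Piezo1*, *Piezo2* and *Pkd2*. The rule found 76 of the 46040 rows of the table, with 73 distinct gene names, since *Cacng6*, *Cacng7* and *Cacng8* were each listed under a second identifier without a count in any library. Of the 76 rows, 43 passed the filter of at least 1 CPM (counts relative to the library total) in at least 2 libraries, and 33 did not. *Scn2a1* and *Clcn4-2* belong to the same families but carry names outside the rule.

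RNA was sequenced from the LVs of 8 male C57BL/6 mice aged 5 to 7 months that had survived to day 14 of angII infusion (0.1 mg/kg/h, by osmotic minipump), with 4 libraries per genotype and 1 mouse per library. One group carried VEGFR-1 TK-/-, an *Flt1* allele that encodes VEGFR-1 without its tyrosine kinase domain, and the other group were littermate controls. All mice of both groups received angII, and no library of an untreated heart was analysed here. The labels contradict each other on the genotype, since the genotype tag and library name of each library give one genotype and the sample title gives the other. Groups follow the tags here, as the control-tagged libraries and the VEGFR-1 TK-/--tagged libraries (TK-tagged for short). A log2 fold change above 0 is a higher level in the TK-tagged group, and the titles, if right, would turn every sign. The library names also refer to cardiomyocytes and the labels to depletion of ribosomal RNA, where the study's methods describe LV tissue and poly-A selection.

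Between 11449137 and 16239670 counts per library fell on genes. Values per library are CPM scaled by the TMM factors of edgeR (0.917 to 1.12), called normalized CPM. *Flt1* counts, taken over the whole gene and not over the deleted part, lay at 56.9 to 84.3 normalized CPM in the control-tagged and at 144 to 170 in the TK-tagged libraries, which does not show which label is right. Markers of ventricular cardiomyocytes were the most abundant of the lists used (summed 45380 to 77490 normalized CPM over 6 genes). Of 4 atrial markers, *Nppa*, which ventricles under load also express, lay at 498 to 1425 and *Myl4* at 2.90 to 4.86 normalized CPM, *Myl7* did not exceed 1.23 and *Sln* did not exceed 0.266. Of 6 skeletal muscle markers, *Myh2*, *Myh4* and *Myog* had no count in any library, *Myh1* had at most 1 and *Tnnt3* lay at 0.480 to 1.67 normalized CPM, whereas *Ckm*, which the heart also expresses, lay at 2803 to 5725. The TK-tagged libraries were lower at an unadjusted p under 0.05 for 3 of 5 endothelial markers (*Pecam1*, *Cdh5* and *Tie1*), for 2 of 6 smooth muscle and pericyte markers (*Rgs5* and *Kcnj8*) and for 1 of 5 leukocyte markers (*Csf1r*), and higher for 2 of 6 cardiomyocyte markers (*Tnni3* and *Pln*) and 1 of 6 Schwann cell and nerve markers (*Cdh19*). In whole LV tissue, fewer cells of a type and less RNA per cell cannot be told apart.

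In ventricular muscle, each beat starts with an inward sodium current through the pore-forming alpha subunit. Small beta subunits tune the gating and surface level of this pore. The depolarisation opens L-type calcium channels, built from an alpha1 pore, an intracellular beta subunit that brings the pore to the membrane, and an extracellular alpha2delta subunit, and the calcium that enters triggers contraction. HCN channels carry the pacemaker current of the sinoatrial node, TRP channels carry cations in response to lipids, stretch, temperature or calcium, and *Piezo1* opens when the membrane is stretched.

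The promoter windows of *Cacnb3* and *Piezo1* are shown because these were the channel genes with the lowest p between the groups. They are the 250 bases before the transcript start in RefSeq on GRCm38.p6, 5′ to 3′ on the strand of the gene, at chr15:98634517-98634766 (+) for *Cacnb3* and chr8:122551330-122551579 (-) for *Piezo1*. Capitals mark matches, on either strand, to 1 of 3 motifs. The first was GGGCGG, the core of a GC box. The next was TATAAA, the consensus of the box bound by TBP. The last was CACGTG, an E-box.
Cacnb3: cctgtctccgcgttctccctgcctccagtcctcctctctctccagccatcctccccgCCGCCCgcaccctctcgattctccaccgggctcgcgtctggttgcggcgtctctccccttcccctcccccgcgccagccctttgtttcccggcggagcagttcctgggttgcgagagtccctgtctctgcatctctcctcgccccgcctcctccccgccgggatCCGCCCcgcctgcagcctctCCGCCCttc
Piezo1: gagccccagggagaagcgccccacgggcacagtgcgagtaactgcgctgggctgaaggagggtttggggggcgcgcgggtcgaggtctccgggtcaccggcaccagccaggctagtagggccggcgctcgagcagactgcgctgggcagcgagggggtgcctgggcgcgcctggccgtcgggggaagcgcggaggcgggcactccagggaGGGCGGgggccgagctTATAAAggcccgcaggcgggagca
The *Cacnb3* window held 3 matches to GGGCGG and none to the other motifs, with a GC content of 70.4% and 23 CG dinucleotides. The *Piezo1* window held 1 match to GGGCGG and 1 to TATAAA, with a GC content of 74.0% and 26 CG dinucleotides. GGGCGG was present in 45.7% of the 46 windows of the 32 channel genes that passed the filter and had a window, and in 32.7% of all 32851 windows of this length. TATAAA was present in 10.9% of the windows of the channel genes and in 12.4% of all windows, and CACGTG in 6.52% and 6.02%. The set of all windows was not limited to genes that passed the filter, so these shares are of unlike sets. These matches are letters in a window and were not related to the counts. The *Cacnb3* window lies inside the gene as annotated by GENCODE, whose first transcript starts farther upstream.

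Levels were compared within a library and per length (normalized CPM per kb of exon, all annotated exons of a gene merged). *Cacna1c*, the L-type calcium channel CaV1.2 of the working heart, had a mean over the 8 libraries of 13.0 per kb, *Hcn2* 12.5, *Scn4b* 10.7, and *Cacna2d1* and *Clcn7* 10.5 each. Across libraries, the values of these neighbours overlapped on this scale. The merged exons count every alternative exon, so that genes with long or many alternative exons, such as *Cacna1c* with 21191 exon bases, come out low on this scale. Of the 43 genes, 31 had at least 1 CPM in all 8 libraries, 22 had a mean of at least 10 normalized CPM and 12 a mean under 2.

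**Figure D1:**
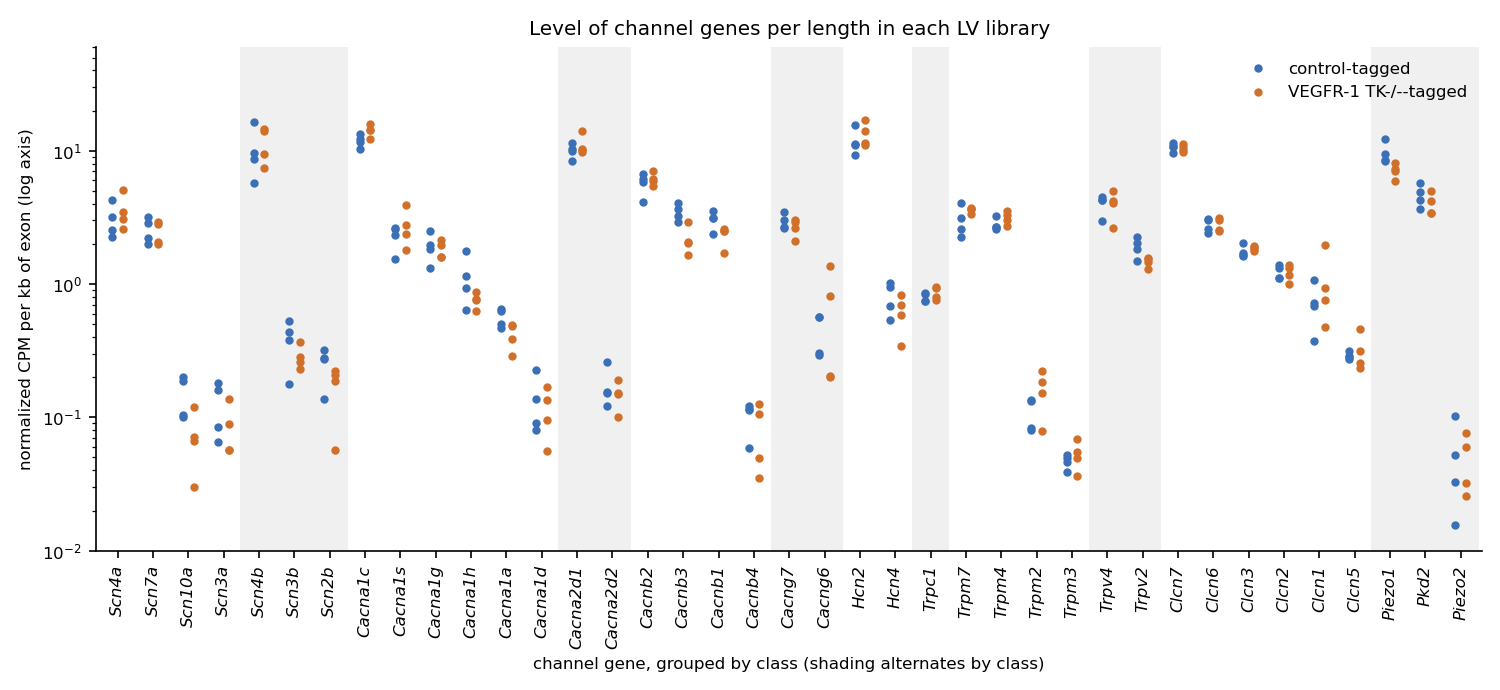
Level of 39 channel genes that passed the filter, in normalized CPM per kb of exon on a log axis, with 1 point per LV library and the genes grouped by class. The points of the 2 genotype tags overlapped for every gene shown but Piezo1.

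No channel gene passed the thresholds for a difference between the genotypes. By the quasi-likelihood test of edgeR at an FDR under 0.1 and a fold change of at least 1.5, 0 of 43 channel genes were called, against 1 of all 13542 genes tested (0.00738%), which was *Flt1*. The lowest FDR of a channel gene was 0.442. The likelihood ratio test of edgeR called 1 of 43, *Cacnb3* (FDR = 0.0895), against 0.391% of all genes, and DESeq2 called 0. At an unadjusted p under 0.05 in the quasi-likelihood test stood 9 of 43 channel genes (20.9%), against 8.96% of all genes. Of these, 8 (18.6%) were lower in the TK-tagged libraries, against 5.64% of all genes, and 1 (2.33%) was higher, against 3.32%. The count of 9 depended on single libraries: it was 3 without TK-tagged replicate 2 (5.25% of all genes), 4 without control-tagged replicate 3 (8.19%), 5 without control-tagged replicate 2 (7.73%) and 5 without TK-tagged replicate 3 (6.20%). *Cacnb3* and *Piezo1* stood under 0.05 in each of the 16 alternatives run, these included, and each of the other genes among the 9 stood at 0.05 or above in at least 1 of them.

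A fold change of at least 1.5 in either direction was seen for 3 of 43 channel genes (*Cacnb3* and *Scn10a* among them), 6.98% against 3.60% of all genes tested. Of these, *Scn10a* had 3 to 22 counts per library, where counting error is large, and passed the filter only through the control-tagged group. Values of the groups did not overlap for 1 of 43, *Piezo1*, 2.33% against 4.98% of all genes. The log2 fold change was below 0 for 25 of 43 (58.1%), against 50.3% of all genes. The median log2 fold change was -0.05 over the channel genes and -0.0012 over all genes tested, and the median size of the change was 0.21 against 0.13. The channel genes also varied more within groups, with a median coefficient of variation of 21.1% against 14.5% for all genes tested. Both the sizes of the changes and the spread between libraries of one group were therefore larger for the channel genes than for the median gene.

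**Figure D2:**
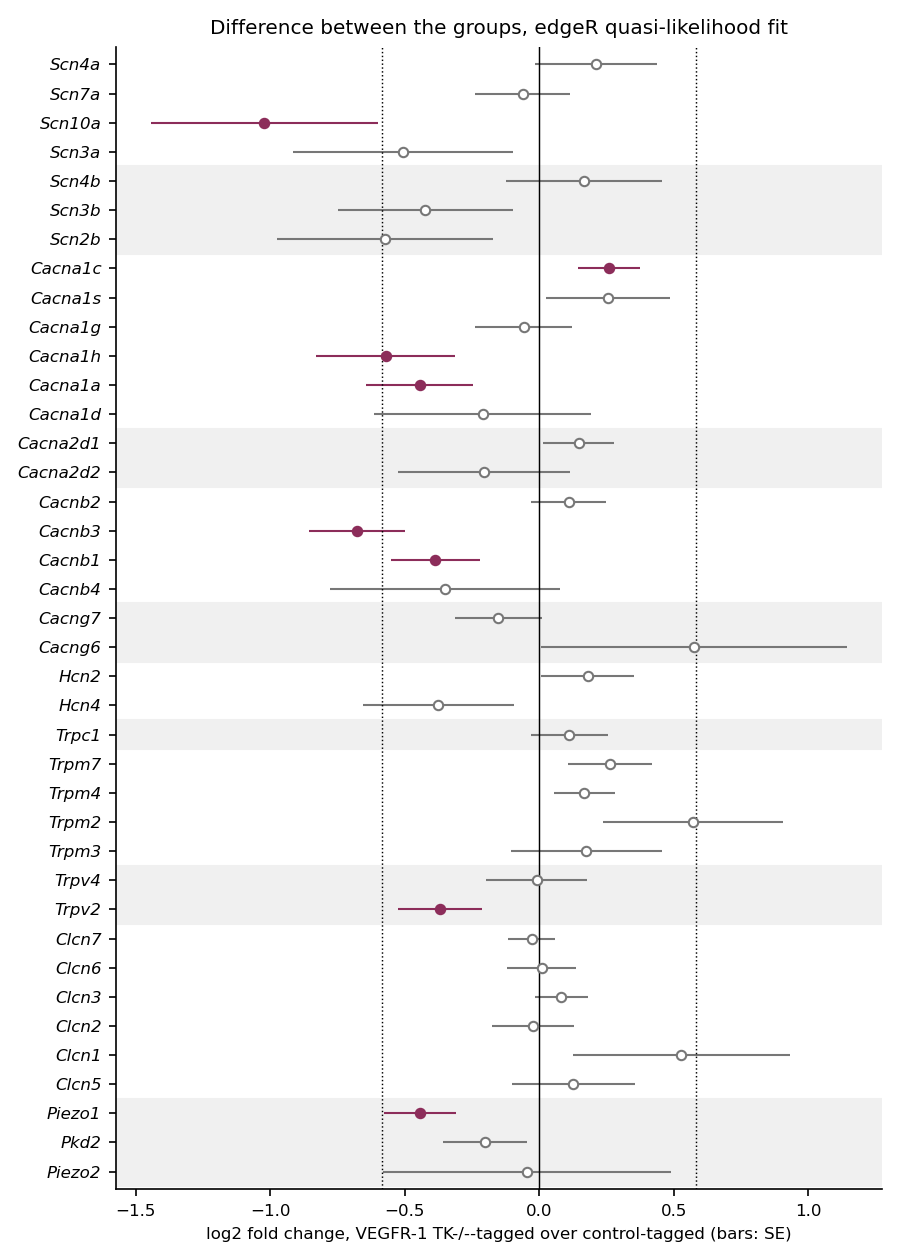
Log2 fold change of 39 channel genes that passed the filter, TK-tagged over control-tagged, with its SE as a bar. Filled points mark 8 genes with an unadjusted p under 0.05, and dotted lines mark a fold change of 1.5 in either direction, which Cacnb3 and Scn10a passed.

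Of the sodium channel alpha subunits, 5 of 9 rows passed the filter, and 4 of the 5 had a log2 fold change below 0. *Scn4a*, which encodes the sodium channel of skeletal muscle, ran from 15.99 to 30.2 normalized CPM in the control-tagged and from 18.1 to 35.6 in the TK-tagged libraries, and its log2 fold change of 0.21 (SE 0.23) was within the spread. *Scn7a*, which encodes the sodium-sensing channel Nax, and *Scn3a*, a subunit best known from the brain, had log2 fold changes of -0.06 and -0.51, with an FDR of 0.941 and 0.742 by edgeR's quasi-likelihood test.

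*Scn10a*, the NaV1.8 channel of sensory neurons, had the lowest log2 fold change of the channel genes, at -1.02 (SE 0.42, FDR = 0.522 by edgeR's quasi-likelihood test). It lies at chr9:119608456-119719322, minus strand (GRCm38, as all positions here). It was near the lower limit of the measurement, with 3 to 22 counts per library. The control-tagged libraries had 0.823, 0.798, 1.48 and 1.599 normalized CPM and the TK-tagged libraries 0.569, 0.533, 0.948 and 0.239. The third TK-tagged library lay above the first and second control-tagged libraries (exact permutation p = 0.0857). Of 6 neuronal markers, 2 passed the filter, *Uchl1* with 16.8 to 26.6 and *Dbh* with 0.798 to 7.13 normalized CPM, while *Th* had at most 1 count in any library. The list summed to 24.1 to 32.2 normalized CPM in the control-tagged and 20.3 to 29.8 in the TK-tagged libraries, and its part in the *Scn10a* values was not tested. Only control-tagged replicates 3 and 4 reached 1 CPM. *Scn10a* thus passed the filter on low counts only through the group where it was higher. It did not pass when either of these libraries was left out, and the counts of channel genes above include it.

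All 4 sodium channel beta subunits passed the filter. *Scn4b* encodes a subunit that is bound to the pore by a disulfide bridge. *Scn4b* varied widely between mice of one group, with 81.7, 43.3, 48.3 and 28.5 normalized CPM in the control-tagged and 36.9, 47.1, 70.6 and 71.9 in the TK-tagged libraries. The highest value of *Scn4b* was 2.87 times the lowest, and both the highest and the lowest were control-tagged. Its log2 fold change was 0.17 (SE 0.29) and turned to -0.03 without control-tagged replicate 4. *Scn3b* and *Scn2b* were low, with log2 fold changes of -0.42 (SE 0.33) and -0.57 (SE 0.40).

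Calcium channel alpha1 subunits showed the only channel gene with p under 0.05 that was higher in the TK-tagged libraries. *Cacna1c* (chr6:118587240-119196418, minus strand) had 258, 217, 248 and 283 normalized CPM in the control-tagged and 336, 304, 305 and 258 in the TK-tagged libraries. The first 3 TK-tagged libraries lay above all control-tagged ones, and the fourth lay among them. The means were 251 ± 27.5 and 301 ± 32.1 (SD, n = 4 each), and the log2 fold change was 0.26 (SE 0.11, p = 0.0428, FDR = 0.544, quasi-likelihood test) with an exact permutation p of 0.0857. *Cacna1c* made up 60.3% to 76.4% of the summed level per kb of the alpha1 subunits. Beside it, *Tnni3* and *Pln*, markers of cardiomyocytes, were higher in the TK-tagged libraries with log2 fold changes of 0.36 and 0.32. The other markers of that list, *Tnnt2*, *Myl2*, *Ryr2* and *Myh6*, had 0.24, 0.19, 0.165 and 0.07. Their part in the result was not tested.

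*Cacna1h* and *Cacna1g* encode the T-type channels CaV3.2 and CaV3.1, which open at more negative potentials than L-type channels. *Cacna1h* (chr17:25374285-25433783, minus strand) had 9.06, 6.24, 17.2 and 11.2 normalized CPM in the control-tagged and 7.48, 6.13, 7.35 and 8.45 in the TK-tagged libraries. The second control-tagged library was the only one that lay among the TK-tagged libraries, and the third stood far above the others. Its log2 fold change was -0.57 (SE 0.26, p = 0.0488, FDR = 0.556, quasi-likelihood test), with an exact permutation p of 0.171. It moved to -0.26 without control-tagged replicate 3 and no longer stood under 0.05. *Cacna1g* had 19.2 ± 4.97 against 18.5 ± 2.78 (SD, n = 4 each), and the log2 fold change was -0.06 (SE 0.18) and turned to 0.10 without control-tagged replicate 3. That library held the highest value of both T-type genes.

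*Cacna1a*, the P/Q-type channel of nerve endings (chr8:84388440-84640246, plus strand), had 5.32, 7.40, 7.13 and 5.76 normalized CPM in the control-tagged and 4.39, 3.29, 5.53 and 5.58 in the TK-tagged libraries. For this gene the log2 fold change was -0.44 (SE 0.20, p = 0.0465, FDR = 0.553, quasi-likelihood test; exact permutation p = 0.114). Only the first control-tagged library lay below TK-tagged values. *Cacna1s*, the voltage sensor of skeletal muscle, had a log2 fold change of 0.26 (SE 0.23), and 20.0% of its exon bases are shared with the antisense gene *Gm37759*, which had at most 1 count in any library. *Cacna1d*, the CaV1.3 channel of pacemaker cells and atrium, was low with 8 to 36 counts per library. Its log2 fold change was -0.21 (SE 0.40).

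Beta subunits of calcium channels held the channel gene with the lowest p. *Cacnb3* (chr15:98630840-98644529, plus strand) had 11.75, 16.3, 14.7 and 12.9 normalized CPM in the control-tagged and 11.78, 6.57, 8.30 and 8.13 in the TK-tagged libraries. The first TK-tagged library lay just above the first control-tagged library, and the other 3 lay below all control-tagged libraries. The means were 13.9 ± 2.0 and 8.69 ± 2.20 (SD, n = 4 each), and the log2 fold change was -0.68 (SE 0.18, p = 0.0027, FDR = 0.442, quasi-likelihood test) with an exact permutation p of 0.0571. With the size factors of DESeq2 or RLE factors the groups of *Cacnb3* did not overlap.

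*Cacnb1* (chr11:98001508-98023034, minus strand) had 14.1, 10.7, 14.3 and 16.1 normalized CPM in the control-tagged and 11.8, 7.72, 11.3 and 11.2 in the TK-tagged libraries. The second control-tagged library lay below 3 of the TK-tagged libraries, and the other control-tagged ones above all of them. The log2 fold change was -0.39 (SE 0.17, p = 0.0385, FDR = 0.534, quasi-likelihood test; exact permutation p = 0.114). *Cacnb2*, the main beta subunit of the ventricle, differed by less than the spread, with 75.3 ± 14.3 against 81.3 ± 8.93 (SD, n = 4 each) and a log2 fold change of 0.11 (SE 0.14, FDR = 0.847). It turned to -0.01 without control-tagged replicate 2. *Cacnb4* was near the filter with 4 to 15 counts per library and a log2 fold change of -0.35 (SE 0.43), and it shares 15.99% of its exon bases with *A430018G15Rik* on the opposite strand.

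The makeup of the beta subunits differed between the groups as a description. *Cacnb2* made up 50.3%, 38.8%, 49.0% and 45.6% of the summed beta level per kb in the control-tagged libraries and 51.2%, 61.5%, 60.5% and 57.2% in the TK-tagged libraries, without overlap. The ratio of all beta subunits to *Cacna1c*, per kb, was 1.01, 1.05, 1.16 and 0.951 in the control-tagged libraries and 0.732, 0.614, 0.808 and 0.884 in the TK-tagged libraries, also without overlap. These were the 2 of 21 shares and ratios computed whose groups did not overlap, they combine genes whose differences were already known, and no test was made.

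**Figure D3:**
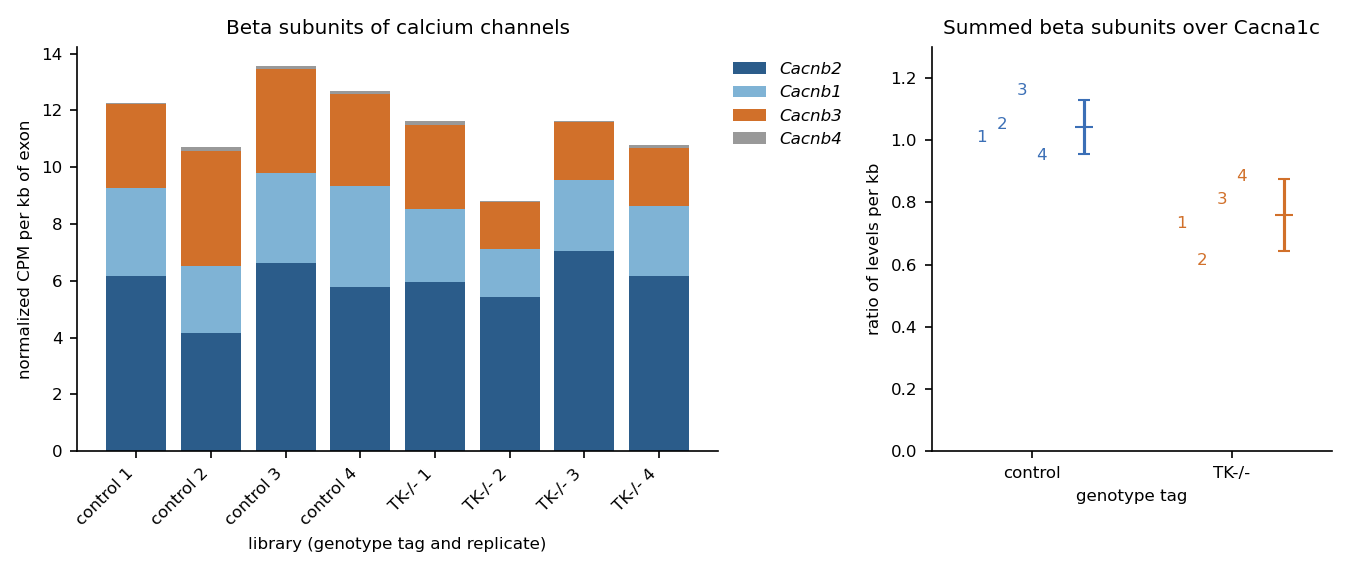
Left, level of each calcium channel beta subunit in normalized CPM per kb of exon, stacked for each library. Right, ratio of the summed beta subunits to Cacna1c, with digits for the replicate and the mean and SD (n = 4) as a bar, 0.951 to 1.16 in the control-tagged and 0.614 to 0.884 in the TK-tagged libraries.

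*Cacna2d1*, the main alpha2delta subunit and the target of gabapentin, made up 96.8% to 98.9% of its class per kb. It had 124 ± 15.5 against 137 ± 24.1 normalized CPM (SD, n = 4 each), and the log2 fold change was 0.15 (SE 0.13, FDR = 0.767, quasi-likelihood test). The second TK-tagged library was the highest, at 173, and without it the log2 fold change was 0.01. Without control-tagged replicate 3 it was 0.07. *Cacna2d2* had a log2 fold change of -0.20 (SE 0.32). *Cacna2d3*, the gene just below the filter, reached 1 CPM in 1 library only, with 10, 12, 7 and 13 counts in the control-tagged and 6, 4, 3 and 3 in the TK-tagged libraries. Without the filter its p was under 0.05 and so was that of *Cacng1*, a subunit of the skeletal muscle calcium channel. Of the gamma subunits, *Cacng7* and *Cacng6* passed the filter, with log2 fold changes of -0.15 (SE 0.16) and 0.58 (SE 0.57). *Cacng6* had 5 to 34 counts per library and turned to -0.12 without TK-tagged replicate 3.

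**Figure D4:**
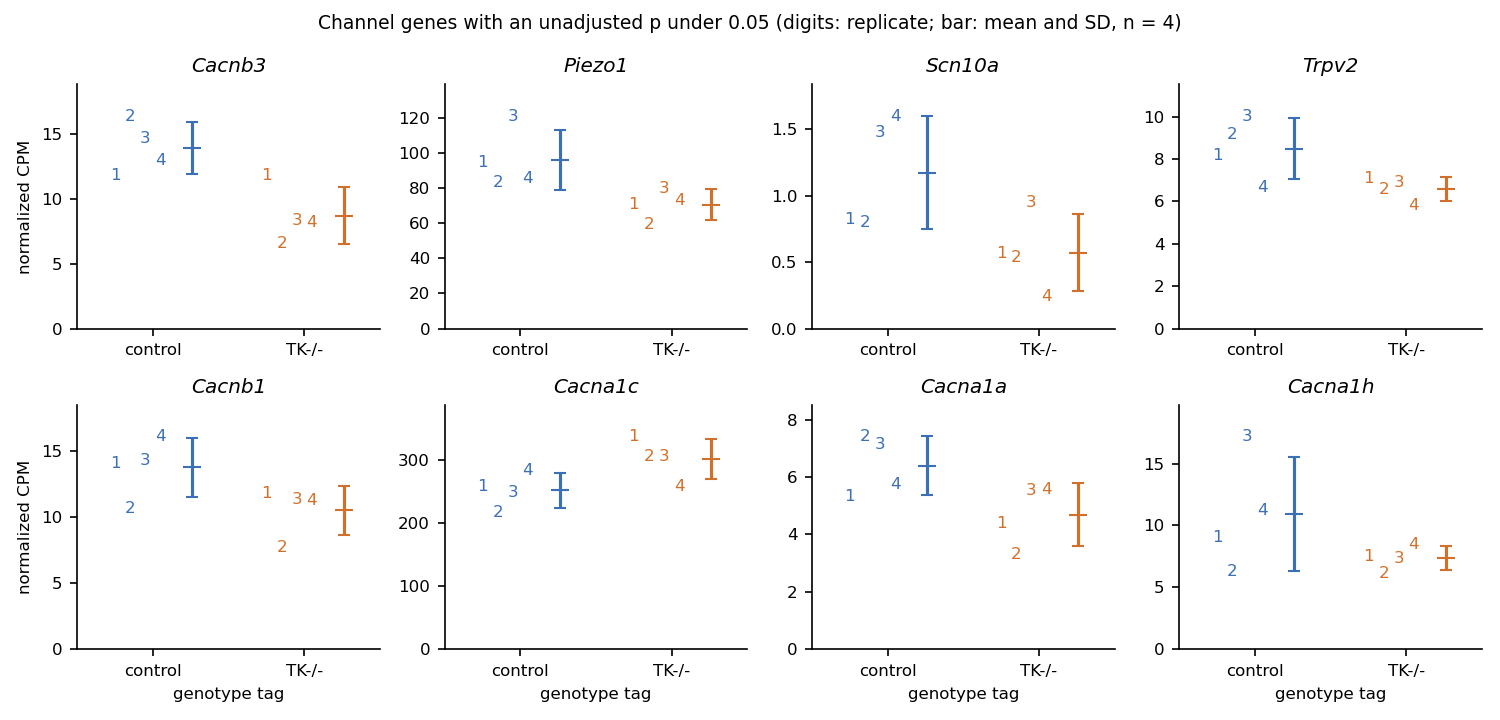
Normalized CPM of 8 channel genes with an unadjusted p under 0.05, with a digit for each replicate and the mean and SD (n = 4) as a bar. The groups did not overlap for Piezo1, where the control-tagged libraries lay at 83.1 to 121 and the TK-tagged libraries at 59.0 to 79.9.

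Of the pacemaker channels, *Hcn2* made up 91.5% to 96.5% of the summed level per kb in every library. *Hcn2* is the usual HCN subunit of the ventricle, and *Hcn4* that of the sinoatrial node. *Hcn2* had 36.2, 29.5, 49.4 and 35.2 normalized CPM in the control-tagged and 36.2, 54.0, 45.3 and 35.0 in the TK-tagged libraries, with a difference of 0.18 on the log2 scale (SE 0.17, FDR = 0.787, quasi-likelihood test). The groups overlapped over most of their range. The difference was 0.34, with a p under 0.05, without control-tagged replicate 3, and 0.05 and 0.08 without replicate 2 of the TK-tagged and of the control-tagged group. *Hcn4* had 4.86 ± 1.38 against 3.76 ± 1.27 (SD, n = 4 each), and the log2 fold change was -0.37 (SE 0.28). *Hcn3* did not pass the filter, with 1 to 9 counts per library.

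TRPC channels open downstream of receptors that activate phospholipase C, the angII receptor among them. *Trpc1*, which forms channels with other TRPC subunits, varied little, with 6.42 ± 0.476 against 6.94 ± 0.776 (SD, n = 4 each) and a log2 fold change of 0.11 (SE 0.14). *Trpc6*, which diacylglycerol opens, did not pass the filter, with 8, 6, 5 and 10 counts in the control-tagged and 4, 4, 0 and 4 in the TK-tagged libraries. *Trpc2* had no count in any library, and 97.5% of its exon bases are shared with *Xntrpc* on the same strand, which had 2 to 8 counts per library.

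All 4 TRPM genes that passed the filter had a log2 fold change above 0, and none had a p under 0.05 with all libraries and no block. *Trpm7*, a channel fused to a kinase that carries magnesium and calcium, had 29.2, 35.6, 25.4 and 46.0 normalized CPM in the control-tagged and 42.3, 41.6, 37.8 and 41.5 in the TK-tagged libraries. The fourth control-tagged library was the highest, and the other 3 lay below all TK-tagged libraries (log2 fold change 0.26, SE 0.16, exact permutation p = 0.229). It was 0.44 without control-tagged replicate 4, where *Trpm7* stood under 0.05, as it did with the replicate number as a block, and 0.14 without control-tagged replicate 3. *Trpm4*, a calcium-activated channel for monovalent cations, had 30.3 ± 3.40 against 34.0 ± 3.96 (SD, n = 4 each), and the log2 fold change was 0.17 (SE 0.11, FDR = 0.692 by edgeR). Without control-tagged replicate 3, the highest *Trpm4* value of its group, p fell under 0.05 and the groups did not overlap. *Trpm2* and *Trpm3* had means under 2 normalized CPM and log2 fold changes of 0.57 (SE 0.33) and 0.18 (SE 0.28).

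Of the TRPV channels, *Trpv4* and *Trpv2* passed the filter. *Trpv2*, a cation channel of muscle and leukocytes (chr11:62574486-62600515, plus strand), had 8.16, 9.15, 10.02 and 6.64 normalized CPM in the control-tagged and 7.07, 6.57, 6.87 and 5.82 in the TK-tagged libraries. The first 3 control-tagged libraries lay above all others. The log2 fold change of *Trpv2* was -0.37 (SE 0.16, p = 0.0368, FDR = 0.529, quasi-likelihood test; exact permutation p = 0.0857). The summed level of the 5 leukocyte markers lay at 106 to 143 normalized CPM in the control-tagged and 73.8 to 113 in the TK-tagged libraries. Their log2 fold changes were -0.49 (*Csf1r*, the most abundant), -0.37 (*Adgre1*), -0.31 (*Cd68*), -0.13 (*Ptprc*) and 0.43 (*Cd3e*). The part of leukocytes in the *Trpv2* values was not tested. *Trpv4*, which opens on cell swelling and shear stress, had 16.3 ± 2.75 against 16.2 ± 4.07 normalized CPM (SD, n = 4 each) and a log2 fold change of -0.01 (SE 0.19).

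All 6 rows of ClC genes passed the filter, and none had a p under 0.05. *Clcn7*, the chloride-proton exchanger of lysosomes, had 60.2, 56.0, 57.3 and 51.3 normalized CPM in the control-tagged and 59.4, 56.0, 51.4 and 53.7 in the TK-tagged libraries. Its coefficient of variation within groups was 6.43%, and its log2 fold change -0.03 (SE 0.09). *Clcn6*, of late endosomes, had a log2 fold change of 0.01 (SE 0.13), and *Clcn3*, of endosomes, one of 0.08 (SE 0.10). *Clcn1*, the chloride channel of skeletal muscle, varied most of the class, with 2.03 to 5.85 in the control-tagged and 2.60 to 10.7 in the TK-tagged libraries, and had a log2 fold change of 0.53 (SE 0.41). *Clcn4-2*, outside the rule by its name, had 93.5 ± 3.96 against 98.5 ± 2.53 normalized CPM (SD, n = 4 each).

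*Piezo1* (chr8:122481698-122551329, minus strand), the stretch-activated channel best known from endothelium and red blood cells, was the channel gene whose groups did not overlap. It had 94.4, 83.1, 121 and 85.3 normalized CPM in the control-tagged and 70.5, 59.0, 79.9 and 72.8 in the TK-tagged libraries. The lowest control-tagged value lay just above the highest TK-tagged value. The means were 95.9 ± 17.3 and 70.5 ± 8.69 (SD, n = 4 each), and the log2 fold change was -0.44 (SE 0.13, FDR = 0.453 by edgeR's quasi-likelihood test, whose unadjusted p was the second lowest of the channel genes). The exact permutation p was 0.0286, the smallest that 70 assignments of 8 libraries can give.

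Beside *Piezo1*, 3 of 5 endothelial markers (*Pecam1*, *Cdh5* and *Tie1*) were lower in the TK-tagged libraries at an unadjusted p under 0.05. *Cdh5* had a log2 fold change of -0.38 (SE 0.12) and *Tie1* of -0.40 (SE 0.13), whereas *Kdr* had 0.01 and *Emcn* -0.09, and the 5 markers summed to 1083 to 1386 normalized CPM in the control-tagged and 987 to 1117 in the TK-tagged libraries. Their part in the *Piezo1* values was not tested. *Piezo1* shares 24.6% of its exon bases with *Ctu2* on the opposite strand, and whether the counting used strand is not stated. *Ctu2* had 12.2 ± 1.99 against 11.6 ± 1.09 normalized CPM (SD, n = 4 each) and a log2 fold change of -0.09 (SE 0.14).

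*Pkd2*, which encodes polycystin-2 of primary cilia and the endoplasmic reticulum, had 47.0 ± 9.05 against 40.9 ± 7.68 normalized CPM (SD, n = 4 each), and the log2 fold change was -0.20 (SE 0.16, FDR = 0.732, quasi-likelihood test). *Piezo2*, the touch receptor of sensory neurons, had 4 to 24 counts per library and a log2 fold change of -0.05 (SE 0.53).

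Of the 33 rows below the filter, 9 had no count in any library and 24 had at least 1. Besides the second identifiers of *Cacng6*, *Cacng7* and *Cacng8*, the rows without a count were *Scn1a*, *Cacng2*, *Trpc2*, *Trpc5*, *Trpv5* and *Trpv6*, genes best known from brain, retina, sensory organs or epithelia. The limit that a count of 0 allows, 3 counts, was 0.185 to 0.262 CPM per library. A level below it can leave no count in a single library. This limit does not hold for *Trpc2*, whose reads on exons shared with *Xntrpc* may not have been assigned to it. Nor does it hold for the second identifiers, whose genes had counts under the first. The highest count below the filter was that of *Trpc4*, with 19 in the fourth control-tagged library and 3 to 7 in the others. *Trpv1*, the capsaicin receptor of sensory neurons, had at most 9 counts in a library, and *Scn8a*, *Scn9a* and *Scn11a* at most 2.

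Of 46 genes that bind, traffic or regulate these channels, or belong to neighbouring families, 33 passed the filter, and none was called by the quasi-likelihood test, the likelihood ratio test or DESeq2. At an unadjusted p under 0.05 stood 6 of the 33 (18.2%, against 8.96% of all genes), 2 of them higher and 4 lower in the TK-tagged libraries, and the median log2 fold change was -0.07. The count of 6 was 2 without TK-tagged replicate 2 (5.25% of all genes) and 3 without TK-tagged replicate 3 (6.20%). The likelihood ratio test gave 5 (9.14% of all genes). *Fgf13*, a fibroblast growth factor homolog that binds sodium channels from inside the cell, had 37.4 ± 7.71 against 49.6 ± 5.73 normalized CPM (SD, n = 4 each), and the log2 fold change was 0.41 (SE 0.15, FDR = 0.492). *Pkd2l2*, a relative of *Pkd2*, had a log2 fold change of 0.33 (SE 0.12). *Stim1* and *Stim2*, calcium sensors of the endoplasmic reticulum that open Orai channels, had log2 fold changes of -0.20 (SE 0.09) and -0.31 (SE 0.10). Those of *Orai1*, *Orai2* and *Orai3* were -0.13 (SE 0.14), -0.23 (SE 0.25) and -0.0077 (SE 0.12), and their values overlapped between the groups. *Gem*, a small GTPase that inhibits calcium channels, had -0.55 (SE 0.22), and *Stac*, an adaptor of L-type channels with at most 18 counts per library, -1.34 (SE 0.46). *Stac* lay at 0.749 to 1.31 normalized CPM in the control-tagged and 0.0888 to 0.790 in the TK-tagged libraries. It passed the filter only through the control-tagged group, where it was higher, and the count of 6 includes it.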

How the data were processed

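RNA of the LVs of 8 mice on day 14 of angII infusion was measured by RNA sequencing. The authors trimmed reads with Trim Galore 0.4.4, aligned them to GRCm38 with STAR 2.5.4b, counted them on GENCODE genes with featureCounts, and deposited the raw counts of all genes as 1 table. Counting of strand and of reads with several alignments is not stated in the sources used here, so reads of antisense genes or paralogs may be included. All 8 columns were used (0 columns were left out), and groups came from the genotype tags.

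The 13542 genes that reached 1 CPM in 2 or more libraries were normalized with TMM, and the genotypes were compared with edgeR 4.0.16 (quasi-likelihood F test, R 4.3.3, no covariates). The FDR (Benjamini-Hochberg) is taken over all of them. A call needed an FDR under 0.1 and a log2 fold change past 0.585 in either direction. The SE was derived from the fold change and its F statistic. The exact permutation test used mean log2 normalized CPM (prior count 2), was 2-sided, and is given for single genes. The p-values set the difference between the groups against the spread between mice of 1 experiment. Counts per library set the precision: 3 counts are 0.185 to 0.262 CPM. Of the 76 channel rows, 3 have identifiers missing from GENCODE M21, which gave coordinates, and promoter windows are from RefSeq (GRCm38.p6). The procedure was tested on simulated data with planted fold changes larger than that of any channel gene, so smaller changes were not covered.

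Channel genes named with values had an unadjusted p under 0.05, a fold change of at least 1.5 or no overlap between groups, were among the 2 most abundant of their class, have a known role in the ventricle or pacemaker, or lay nearest to the filter. A few others are named where a class is described or for a low count, after their values were seen. Some genes of the rule and the lists are not reported here, in text or plots, though counts include them. The members and lists were chosen with earlier results of these data known. Replicate numbers occur in both groups, and the libraries were not treated as pairs (correlations of same-numbered deviations from -0.0555 to 0.343). Tried as well were edgeR's likelihood ratio test, the size factors and test of DESeq2 1.42.0, robust dispersion, RLE factors, total counts, no filter, filterByExpr, the replicate number as a block and each library left out.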

Additional observations from a re-analysis of the deposited data

Results flagged for a closer look

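In 5 of 86 groups of 4 libraries (43 channel genes in 2 groups), 1 library lay far from the other 3 by Dixon's criterion at 95%, where chance gives 4.3 (about 1 in 20). *Cacna2d1* stood at 173 normalized CPM in TK-tagged replicate 2 (others 122 to 127), and *Cacnb1* in the same library at 7.72 (others 11.2 to 11.8). *Cacnb4* stood at 0.524 in control-tagged replicate 1 (others 1.01 to 1.09), and *Trpv4* in that library at 12.2 (others 17.3 to 18.2). *Trpm4* stood at 35.3 in control-tagged replicate 3 (others 27.9 to 29.1).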

How the results depend on the processing

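The likelihood ratio test called 1 channel gene (*Cacnb3*) where the quasi-likelihood test called 0. With 1 library left out, the count at an unadjusted p under 0.05 ran from 3 to 7 (5.25% to 10.1% of all genes). It was 9 with all 8 libraries (8.96% of all genes). The count of genes without overlap was 2 with DESeq2 size factors and 2 with RLE factors (5.06% of all genes with either), and 2 to 6 with 1 library left out (6.34% to 10.3% of all genes). The median log2 fold change was -0.20 over 67 rows without the filter on low counts. With the replicate number as a block, 0 channel genes were called (0.00738% of all genes), 8 stood under 0.05 (9.19% of all genes) and the median was -0.03. Whether the numbers mark a shared litter or day is not stated in the sources used here, and only the libraries numbered 3 correlated best with each other.

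For 33 named genes, 526 values were computed under 16 alternatives: 505 kept their direction and side of the threshold, 20 changed sign and 1 passed the threshold, and 23 genes never changed sign. *Clcn6* turned to -0.00061 with total counts. With 1 library left out, the log2 fold change ran from -0.46 to 0.16 for *Cacna1d*, -0.20 to 0.10 for *Cacna1g*, -0.347 to 0.0535 for *Cacna2d2*, -0.0145 to 0.191 for *Cacnb2*, -0.12 to 0.88 for *Cacng6*, -0.0557 to 0.0643 for *Clcn6*, -0.0689 to 0.0037 for *Clcn7*, -0.0123 to 0.413 for *Scn4a*, -0.0273 to 0.495 for *Scn4b* and -0.15 to 0.14 for *Trpv4*. The cause of these turns was not tested. Counting error is large for the 12 channel genes under 2 normalized CPM.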

Other observations

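Among the 43 channel genes, TK-tagged replicate 2 held the lowest value for 12 and the highest for 4, and control-tagged replicate 2 held the highest for 9 and the lowest for 9. The other libraries held the highest for 1 to 8 and the lowest for 2 to 5. The same counts were not made over all genes tested, so they are not a trait shown for channel genes. The summed level of all channel genes lay at 1407 to 1588 normalized CPM in the control-tagged and 1462 to 1534 in the TK-tagged libraries.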
